A study of Homo sapiens with 7 samples.

Results

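VCAM1 and 8 further adhesion molecules of the immunoglobulin family (ICAM1, ICAM3, ALCAM, MCAM, L1CAM, NRCAM, NCAM1 and BCAM) were followed by RNA sequencing in 769-P, an established human line of clear cell renal cell carcinoma. The 9 genes were found by symbol among 33117 listed genes, and each had 1 Ensembl identifier. The set was chosen by symbol with the TPM of Lat-M against PA known, in which VCAM1, MCAM and ALCAM stood out. Their differences from PA are therefore described without a test, and a test is given only for Lat-M2 against Lat-M1. Earlier results of these data were also known, so that test may not be fully independent of the choice.

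The 7 libraries were 2 of Lat-M2 cells, 2 of Lat-M1 cells and 3 of PA cells. The labels do not expand PA, and the series title describes Lat-M as latent metastatic. They do not say what the first number of a Lat-M name stands for, how Lat-M cells were obtained or whether they are 1 clone. All 3 groups were grown alike in an RPMI medium with 10% fetal bovine serum, and no added agent is named for any of them. Separate cultures are not stated for the replicates, so the p-values cover the spread between libraries, and that spread may be technical.

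Cell adhesion molecules of the immunoglobulin family carry extracellular immunoglobulin domains, mostly on a single membrane-spanning protein. Some, such as VCAM1 and the ICAM proteins, are ligands of leukocyte integrins, while ALCAM, L1CAM, NRCAM and NCAM1 bind like or related molecules on neighbouring cells, and BCAM binds laminin. Inflammatory cytokines such as TNF and interleukin 1 induce VCAM1 and ICAM1 through NF-kB, and VCAM1 is also known from the tubular epithelium of the injured kidney.

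The promoters of VCAM1 and ICAM1 are shown because these genes are textbook NF-kB targets and because their levels followed different patterns over the 3 groups. The sequences are the 250 bases before each gene start in RefSeq (GRCh38.p14, plus strand, 5′ to 3′), at chr1:100719492-100719741 for VCAM1 and chr19:10270870-10271119 for ICAM1. Capitals mark matches on either strand to the NF-kB consensus, to GGNNNTTCC, to GGNTTTCC or to TATAAA, and matches may overlap.
VCAM1: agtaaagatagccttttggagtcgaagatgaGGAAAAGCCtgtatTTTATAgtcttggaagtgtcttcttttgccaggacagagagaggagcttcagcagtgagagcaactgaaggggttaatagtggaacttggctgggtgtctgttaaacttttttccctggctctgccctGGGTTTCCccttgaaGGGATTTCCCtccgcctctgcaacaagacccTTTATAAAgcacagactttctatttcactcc
ICAM1: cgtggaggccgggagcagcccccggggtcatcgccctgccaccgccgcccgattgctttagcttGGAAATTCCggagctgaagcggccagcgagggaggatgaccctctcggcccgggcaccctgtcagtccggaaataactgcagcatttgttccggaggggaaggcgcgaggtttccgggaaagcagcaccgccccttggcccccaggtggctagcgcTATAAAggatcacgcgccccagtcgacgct

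In VCAM1 the pair of sites GGGTTTCC and GGGATTTCCC lay 77 to 70 and 62 to 53 bases before the start, the second matched by the NF-kB consensus, GGNNNTTCC and GGNTTTCC together. A TATAAA stood 29 to 24 bases before the start, overlapped by a match on the other strand (TTTATA, 31 to 26 bases before it). The other marked stretches of VCAM1 were also matches on the other strand. They were GGAAAAGCC, for GGNNNTTCC, at 219 to 211 bases and TTTATA, for TATAAA, at 205 to 200 bases before the start. In ICAM1 a GGAAATTCC lay 186 to 178 bases before the start and a TATAAA 30 to 25 bases before it. Among 35116 RefSeq windows of the same length, 9.96% held the NF-kB consensus, 17.1% GGNNNTTCC, 4.99% GGNTTTCC and 10.7% TATAAA. Of the 9 genes, 8 had a window. The ICAM1 window held no match to the NF-kB consensus, while 1 of 3 ICAM3 windows held one. Those of ALCAM, MCAM, L1CAM, NRCAM and BCAM held none of the 4 motifs. A match describes the letters and shows neither binding nor a cause.

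Expression was given as TPM, a level per transcript length that sums to the same total in each library, so levels can be set side by side between genes. The depth of the libraries is unknown, since TPM keeps no read total. In a library 16136 to 16872 genes reached 1 TPM, and within each group Pearson's r across genes was 0.983 or more, although genes are not independent. Differences are on the scale of log2(TPM + 1), which understates those of low genes, and come from 1 limma fit of the 3 groups over the 16724 genes that averaged at least 1 TPM. A gene passed the test at a Benjamini-Hochberg adjusted p below 0.05. The median log2 difference of all tested genes was 0.14 for Lat-M2 and 0.16 for Lat-M1 against PA and -0.011 for Lat-M2 against Lat-M1. A set of 4 structural RNAs (RMRP, RN7SK, RN7SL1 and RN7SL2) took 22.9% and 27.7% of TPM in Lat-M2, 21.9% and 18.6% in Lat-M1 and 31.8%, 30.3% and 29.5% in PA, and their part in that shift was not tested. Scaled values, with each library divided by its median ratio to the others, are given for named genes where they change a stated call or direction. Medians of the lists are given unscaled.

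Of the 9 genes, 7 passed the filter on low values. By the mean over the 7 libraries, NRCAM was the lowest of these, and BCAM and NCAM1 fell short of the filter. In bulk libraries, fewer cells with a transcript and less transcript per cell cannot be told apart. ALCAM had the highest level of the 9 in each library, and the order below it differed between the groups. In PA it was followed by ICAM1, L1CAM, ICAM3, VCAM1, NRCAM, MCAM and BCAM, and in this order the ranges of neighbours did not overlap. In Lat-M1 the order was ALCAM, ICAM1, L1CAM, VCAM1, MCAM, ICAM3, NRCAM and BCAM, again without overlap. The lower L1CAM library there, at 78.4 TPM, lay just above the higher VCAM1 library, at 77.2 TPM. In Lat-M2 the levels of L1CAM, VCAM1 and ICAM1 overlapped with those of their neighbour, as did MCAM with ICAM3. The summed level of the 9 genes was 296 and 266 TPM in Lat-M2, 447 and 468 TPM in Lat-M1 and 291, 289 and 301 TPM in PA. ALCAM took 54.0% and 55.1% of that sum in Lat-M2, 39.0% and 38.2% in Lat-M1 and 77.2%, 73.9% and 75.1% in PA.

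**Figure D1:**
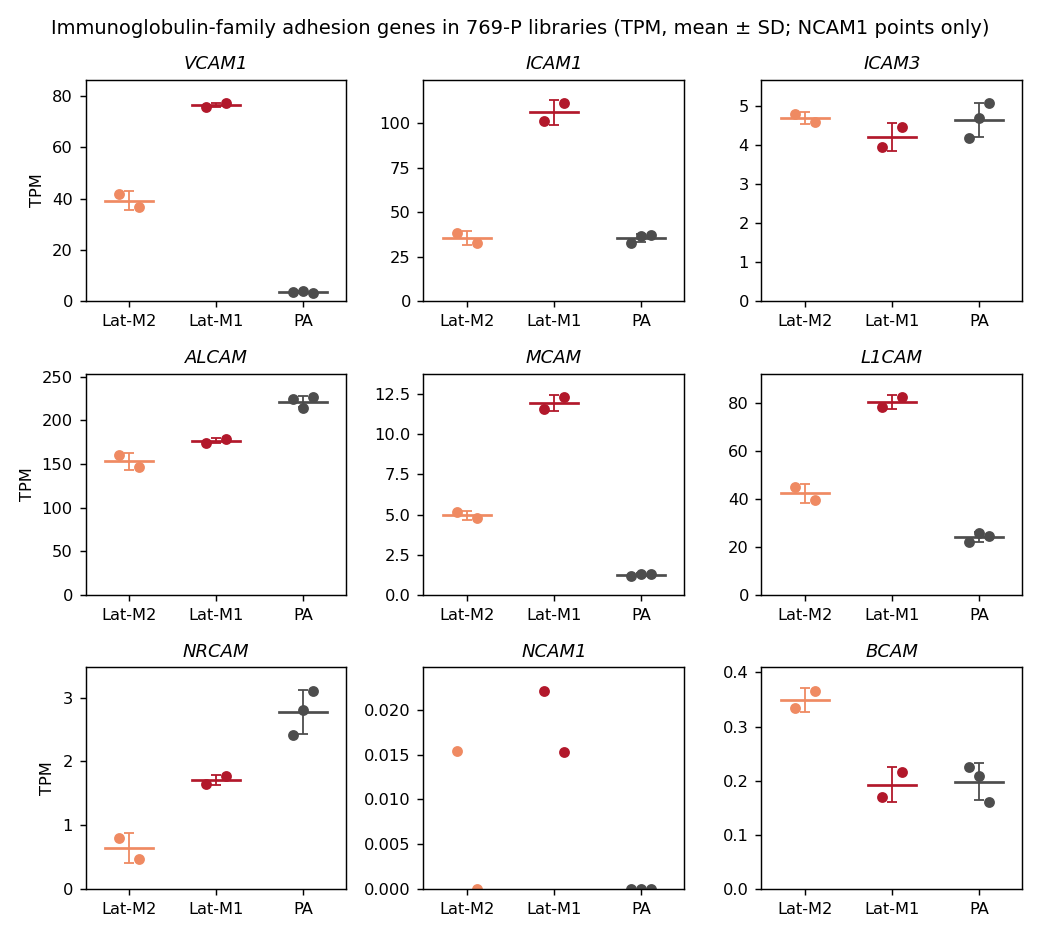
TPM of the 9 genes by group, with 1 point per library, a line at the group mean and bars of 1 SD (n = 2, 2 and 3; NCAM1 as points alone, since several libraries list it at 0). VCAM1, MCAM and L1CAM lie highest in Lat-M1 and lowest in PA, ICAM1 lies highest in Lat-M1, and ALCAM and NRCAM lie highest in PA.

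VCAM1 (ENSG00000162692.6, chromosome 1), the ligand of the ITGA4 integrins, had 41.8 and 36.6 TPM in Lat-M2, 76.0 and 77.2 TPM in Lat-M1 and 3.75, 4.07 and 3.39 TPM in PA. The 3 groups did not overlap, and Lat-M2 lay between the other groups. The means were 39.2 ± 3.63 TPM in Lat-M2, 76.6 ± 0.843 TPM in Lat-M1 and 3.74 ± 0.338 TPM in PA (SD; n = 2, 2 and 3). That was 10.5-fold the PA mean in Lat-M2 and 20.5-fold in Lat-M1, or log2 differences of 3.08 ± 0.085 and 4.03 ± 0.085 (SE). Lat-M2 held 0.512 times the VCAM1 of Lat-M1, a log2 difference of -0.95 ± 0.093 that passed the test (limma adjusted p = 0.000297). Ranked by mean TPM among all listed genes, VCAM1 stood at place 3825 in Lat-M2, 2029 in Lat-M1 and 11931 in PA.

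ICAM1 (ENSG00000090339.4, chromosome 19), the ligand of the integrins LFA-1 and Mac-1, had 38.1 and 32.9 TPM in Lat-M2, 101 and 111 TPM in Lat-M1 and 32.7, 36.7 and 37.0 TPM in PA. Lat-M1 lay apart, while the ranges of Lat-M2 and PA overlapped. Lat-M1 averaged 2.99-fold the PA level, a log2 difference of 1.55 ± 0.089. In Lat-M2 the log2 difference from PA was -0.00029 ± 0.089, and -0.15 after scaling. Lat-M2 was below Lat-M1 by a log2 difference of -1.55 ± 0.098 (limma adjusted p = 3.48e-05). VCAM1 thus lay above PA in all 4 Lat-M libraries, and ICAM1 in both Lat-M1 libraries and 1 of the 2 Lat-M2 libraries. The ratio of VCAM1 to ICAM1 was 1.10 and 1.11 in Lat-M2, 0.752 and 0.696 in Lat-M1 and 0.115, 0.111 and 0.0917 in PA.

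ICAM3 (ENSG00000076662.5), a ligand of LFA-1 best known from resting leukocytes and encoded on the same chromosome, showed no such pattern. It had 4.81 and 4.58 TPM in Lat-M2, 3.96 and 4.45 TPM in Lat-M1 and 4.18, 4.69 and 5.06 TPM in PA, and Lat-M1 and Lat-M2 each overlapped PA. The log2 difference was 0.016 ± 0.10 for Lat-M2 and -0.12 ± 0.10 for Lat-M1 against PA (-0.11 and -0.26 scaled). Lat-M2 differed from Lat-M1 by 0.13 ± 0.11 and missed the test (limma adjusted p = 0.415).

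The other ICAM genes are not among the 9. In RefSeq, ICAM4 and ICAM5 lie between ICAM1 and ICAM3 in gene order, with ICAM4-AS1 beside ICAM4, and whether the TPM used strand is not stated. ICAM4, the Landsteiner-Wiener blood group protein, had 0.207 and 0.428 TPM in Lat-M2, 0.726 and 0.686 TPM in Lat-M1 and 0.0720, 0.366 and 0.187 TPM in PA. ICAM5, a neuronal ICAM, was at most 0.0504 TPM in any library. ICAM2, an endothelial and leukocyte ICAM, had 0.0304 and 0.0941 TPM in Lat-M2, 1.16 and 1.21 TPM in Lat-M1 and 0, 0.0805 and 0.0274 TPM in PA. These genes averaged under 1 TPM and were not tested, and they were chosen after their values were seen. ICAM2 and ICAM4 were both highest in the Lat-M1 pair.

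MCAM (ENSG00000076706.10, chromosome 11), an adhesion molecule of endothelium and melanoma, had 5.16 and 4.77 TPM in Lat-M2, 11.6 and 12.3 TPM in Lat-M1 and 1.18, 1.33 and 1.33 TPM in PA. As with VCAM1, the groups did not overlap, and Lat-M2 lay between. The Lat-M2 mean was 3.89-fold and the Lat-M1 mean 9.35-fold that of PA, with log2 differences of 1.39 ± 0.096 and 2.51 ± 0.096. Lat-M2 was below Lat-M1 by a log2 difference of -1.12 ± 0.11 (limma adjusted p = 0.000242).

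ALCAM (ENSG00000170017.8, chromosome 3) binds itself on other cells and CD6 on T cells. It ran the other way, with 160 and 146 TPM in Lat-M2, 175 and 179 TPM in Lat-M1 and 224, 214 and 227 TPM in PA. The 3 groups did not overlap. The log2 difference from PA was -0.53 ± 0.060 in Lat-M2 and -0.33 ± 0.060 in Lat-M1, or 0.691 and 0.797 times the PA mean. After scaling these differences were -0.68 and -0.50. Lat-M2 was below Lat-M1 by -0.21 ± 0.065 (limma adjusted p = 0.0449). That call was lost under 12 of 16 alternatives (limma adjusted p 0.0102 to 0.375), among them leaving out any 1 library other than Lat-M2 replicate 1. Without the structural RNAs the difference between the pairs was -0.11. Although its level was lower than in PA, ALCAM remained the most abundant of the 9 in each Lat-M library.

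L1CAM and NRCAM belong to the L1 family of neural adhesion molecules, which bind ankyrin inside the cell. L1CAM (ENSG00000198910.8, X chromosome) had 45.1 and 39.7 TPM in Lat-M2, 78.4 and 82.5 TPM in Lat-M1 and 22.0, 25.7 and 24.8 TPM in PA. The groups did not overlap, and both Lat-M pairs lay above PA, by log2 differences of 0.79 ± 0.087 in Lat-M2 and 1.70 ± 0.087 in Lat-M1. Lat-M2 was below Lat-M1 by -0.91 ± 0.095 (limma adjusted p = 0.000397).

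NRCAM (ENSG00000091129.15, chromosome 7) had 0.806 and 0.474 TPM in Lat-M2, 1.65 and 1.76 TPM in Lat-M1 and 2.41, 2.81 and 3.10 TPM in PA. The order of the groups was PA, Lat-M1 and Lat-M2 from high to low, again without overlap. The log2 difference from PA was -1.20 ± 0.16 in Lat-M2 and -0.48 ± 0.16 in Lat-M1, and Lat-M2 was below Lat-M1 by -0.73 ± 0.18 (limma adjusted p = 0.0168). With a pseudocount of 0.1 the Lat-M2 differences were -1.99 from PA and -1.32 from Lat-M1. The call between the Lat-M pairs ended without Lat-M1 replicate 1, Lat-M1 replicate 2 or Lat-M2 replicate 2 (limma adjusted p = 0.0633, 0.082 and 0.0687). Relative to Lat-M1, L1CAM and NRCAM were therefore both lower in Lat-M2, while relative to PA they lay on opposite sides.

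The remaining 2 members were near 0. BCAM (ENSG00000187244.6, chromosome 19), the Lutheran blood group protein, had 0.334 and 0.366 TPM in Lat-M2, 0.169 and 0.215 TPM in Lat-M1 and 0.226, 0.209 and 0.160 TPM in PA. Lat-M2 was the highest pair, at under 1 TPM, and no test was made. NCAM1 (ENSG00000149294.12, chromosome 11), the neural adhesion molecule that also marks natural killer cells, was listed at 0.0154 and 0 TPM in Lat-M2, 0.0221 and 0.0153 TPM in Lat-M1 and 0 TPM in the 3 PA libraries.

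In Lat-M2 against Lat-M1, 6 of the 7 tested members were lower and none higher, where 36.0% of all tested genes passed, 20.1% lower and 16.0% higher (44.2%, 22.6% and 21.6% scaled). The median log2 difference of the 7 was -0.91, beside -0.011 over all tested genes.

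**Figure D2:**
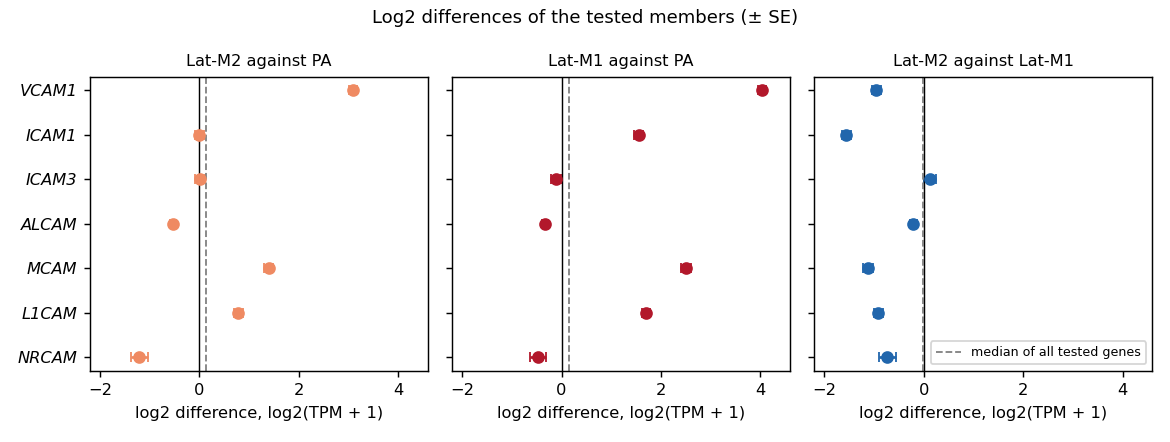
Log2 differences of the 7 tested members (points, with bars of 1 SE) in Lat-M1 against PA, Lat-M2 against PA and Lat-M2 against Lat-M1, with a dashed line at the median of all tested genes. Between the Lat-M pairs all but ICAM3 lie left of 0, from -0.21 for ALCAM to -1.55 for ICAM1.

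A second list held 59 other adhesion molecules of the immunoglobulin family, of which 49 were listed and 24 passed the filter. In Lat-M2 against PA 3 of the 24 rose and 2 fell (1 and 4 scaled), with a median log2 difference of 0.12, where 14.9% of all tested genes passed, 12.7% higher and 2.24% lower (15.9%, 7.47% and 8.41% scaled). In Lat-M1 against PA 9 rose and 4 fell (7 and 6 scaled), with a median of 0.10, where 44.8% of all tested genes passed, 33.2% higher and 11.6% lower (47.0%, 24.0% and 23.0% scaled). Both medians were close to those of all tested genes. In Lat-M2 against Lat-M1 3 were higher and 4 lower (6 and 4 scaled), beside the 36.0% of all tested genes that passed. The Lat-M2 count against PA, 5 in all, was 2 without PA replicate 1, 1 without Lat-M2 replicate 1 and 3 without PA replicate 2, PA replicate 3 or either Lat-M1 library. The Lat-M2 against Lat-M1 count, 7 in all, was 4 without either Lat-M1 library.

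Of the tested genes of that list, CNTN1 and NPTN had the largest rises in Lat-M1 on the scale of log2(TPM + 1). CNTN1, a lipid-anchored neural adhesion molecule that also binds L1 family proteins, had 0.775 and 0.597 TPM in Lat-M2, 12.7 and 12.9 TPM in Lat-M1 and 1.73, 1.44 and 1.54 TPM in PA. It rose in Lat-M1 (log2 difference 2.42 ± 0.12, limma adjusted p = 7.44e-06) and fell in Lat-M2 (-0.61 ± 0.12, limma adjusted p = 0.0193), and Lat-M2 was below Lat-M1 by -3.03 ± 0.13 (limma adjusted p = 5.7e-06). Its fall in Lat-M2 was lost under 5 of 13 alternatives (limma adjusted p 0.00913 to 0.0777), among them those without PA replicate 1, Lat-M2 replicate 1 or either Lat-M1 library. NPTN, a neuroplastin of synapses and other membranes, had 59.4 and 58.6 TPM in Lat-M2, 148 and 156 TPM in Lat-M1 and 52.4, 51.5 and 52.7 TPM in PA. It rose in Lat-M1 (1.52 ± 0.05, limma adjusted p = 1.27e-06) and missed the test in Lat-M2 (0.17 ± 0.05, limma adjusted p = 0.0629).

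Among the nectins and their relatives, PVRL2, a nectin of cell junctions, had 19.5 and 19.4 TPM in Lat-M2, 17.7 and 17.7 TPM in Lat-M1 and 9.54, 12.7 and 10.4 TPM in PA. It was higher in both pairs, by 0.79 ± 0.11 in Lat-M2 (limma adjusted p = 0.00664, and 0.0589 without Lat-M2 replicate 1) and 0.66 ± 0.11 in Lat-M1 (limma adjusted p = 0.00217). Chosen after their values were seen, PVR was lower in Lat-M1 (-0.43 ± 0.06, limma adjusted p = 0.00149) and PVRL3 higher (0.36 ± 0.05, limma adjusted p = 0.00157). In Lat-M2 both missed the test (limma adjusted p = 0.431 and 0.247), and PVR passed it as lower after scaling (-0.23, limma adjusted p = 0.0125). The PVRL3 difference in Lat-M2 was 0.099, and -0.050 scaled. CADM1, an epithelial adhesion molecule lost in several carcinomas, had 5.78 and 4.97 TPM in Lat-M2, 4.33 and 4.52 TPM in Lat-M1 and 9.08, 8.78 and 8.83 TPM in PA. It fell in both, by -0.64 ± 0.09 in Lat-M2 (limma adjusted p = 0.00649) and -0.87 ± 0.09 in Lat-M1 (limma adjusted p = 0.000219). NTM, a neural adhesion molecule, had 2.07 and 1.90 TPM in Lat-M2, 0.393 and 0.437 TPM in Lat-M1 and 2.28, 2.05 and 2.39 TPM in PA, and fell in Lat-M1 (-1.19 ± 0.14, limma adjusted p = 0.000567). Lat-M2 missed the test against PA (limma adjusted p = 0.605) and was above Lat-M1 by 1.08 ± 0.16 (limma adjusted p = 0.00192). CD58, a ligand of CD2 on T cells, was higher in Lat-M2 (0.32 ± 0.06, limma adjusted p = 0.0204), a call lost on scaling (limma adjusted p = 0.0576) and without Lat-M2 replicate 1 or any 1 PA library (limma adjusted p up to 0.0895).

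The alpha chains best known as receptors of VCAM1 were near 0 in all libraries. ITGA4 was at most 0.0119 TPM and ITGA9 at most 0.0357 TPM in any library, and ITGAL and ITGB2, the chains of LFA-1, were at most 0.0157 and 0.202 TPM. ITGAM, the alpha chain of Mac-1, was not near 0. It had 2.54 and 2.21 TPM in Lat-M2, 4.74 and 4.74 TPM in Lat-M1 and 1.36, 1.84 and 1.71 TPM in PA. These were chosen after their values were seen. Of the 19 binding partners and cytoplasmic anchors, 17 were listed and 10 tested. In Lat-M2 against PA 1 rose and 1 fell (0 and 1 scaled; median 0.097), where 12.7% of all tested genes were higher and 2.24% lower. In Lat-M1 against PA 7 rose and 1 fell (6 and 2 scaled; median 0.54), where 33.2% of all were higher and 11.6% lower. In Lat-M2 against Lat-M1 1 was higher and 7 lower, where 16.0% of all were higher and 20.1% lower. After scaling, these shares of all tested genes were 7.47% and 8.41%, 24.0% and 23.0%, and 21.6% and 22.6%, in the same order.

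Ankyrins tether L1 family proteins to spectrin, and of the 3 in the list ANK2 and ANK3 were tested, while ANK1 was at most 0.113 TPM. ANK3 had 1.80 and 1.53 TPM in Lat-M2, 6.18 and 6.63 TPM in Lat-M1 and 1.30, 1.08 and 1.31 TPM in PA (Lat-M1 against PA 1.73 ± 0.13, limma adjusted p = 4.93e-05; Lat-M2 against PA 0.25 ± 0.13, limma adjusted p = 0.207). ANK2 had 6.77 and 5.95 TPM in Lat-M2, 14.1 and 15.5 TPM in Lat-M1 and 4.88, 4.84 and 4.85 TPM in PA. It rose in Lat-M1 (1.43 ± 0.08, limma adjusted p = 1.76e-05) and, with a call lost on scaling (limma adjusted p = 0.0614) and under 9 of 14 alternatives, each library but Lat-M2 replicate 2 left out among them (limma adjusted p 0.0284 to 0.201), in Lat-M2 (0.33 ± 0.08, limma adjusted p = 0.0421; 0.20 scaled). MSN, the moesin that links the tails of VCAM1, ICAM1 and ICAM3 to actin, rose in Lat-M1 (0.79 ± 0.07, limma adjusted p = 0.000112). In Lat-M2 MSN missed the test (0.03 ± 0.07, limma adjusted p = 0.776), and its difference was -0.12 scaled. ITGAD, a leukocyte integrin chain that binds VCAM1 and ICAM3, ran the other way, with 1.36 and 1.06 TPM in Lat-M2, 0.0427 and 0.0222 TPM in Lat-M1 and 4.52, 4.71 and 4.88 TPM in PA. It fell in Lat-M2 (-1.37 ± 0.14, limma adjusted p = 0.00199) and in Lat-M1 (-2.47 ± 0.14, limma adjusted p = 1.63e-05).

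Proteases that release adhesion molecules from the surface, and their regulators, made a list of 5, all tested. In Lat-M2 against PA 2 rose and none fell, where 12.7% of all tested genes were higher. In Lat-M1 against PA 4 rose and none fell, where 33.2% of all were higher. In Lat-M2 against Lat-M1 3 were lower and none higher, where 20.1% of all were lower. The counts of this list were the same after median ratio scaling. The shares of all tested genes were then 7.47% higher in Lat-M2 and 24.0% higher in Lat-M1 against PA. In Lat-M2 against Lat-M1 the scaled share was 22.6% lower. ADAM17, the sheddase of VCAM1 and L1CAM, had 62.0 and 56.1 TPM in Lat-M2, 77.5 and 79.4 TPM in Lat-M1 and 54.1, 53.8 and 54.2 TPM in PA. It rose in Lat-M1 (0.53 ± 0.06, limma adjusted p = 0.000377) and missed the test in Lat-M2 (0.12 ± 0.06, limma adjusted p = 0.189, and -0.027 scaled). RHBDF2, which carries ADAM17 to the surface, rose in Lat-M1 (1.10 ± 0.13, limma adjusted p = 0.000479) and missed the test in Lat-M2 (0.21 ± 0.13, limma adjusted p = 0.285). TIMP3, an inhibitor of ADAM17, had 7.25 and 5.92 TPM in Lat-M2, 22.1 and 22.5 TPM in Lat-M1 and 1.14, 1.02 and 0.888 TPM in PA, so that the groups did not overlap. It rose in Lat-M2 (1.91 ± 0.11, limma adjusted p = 0.000151) and in Lat-M1 (3.53 ± 0.11, limma adjusted p = 9.15e-07). ADAM10, a sheddase of L1CAM, was higher by 0.35 ± 0.07 in Lat-M2 (limma adjusted p = 0.018) and 0.31 ± 0.07 in Lat-M1 (limma adjusted p = 0.00781, and 0.0601 without Lat-M1 replicate 2). The ADAM10 difference was 0.20 in Lat-M2 and 0.13 in Lat-M1 after scaling, and in Lat-M1 it was 0.11 and missed the test without the structural RNAs (limma adjusted p = 0.0805). The Lat-M2 count of 2 was 1 without PA replicate 1, PA replicate 2 or Lat-M2 replicate 1, as the call of ADAM10 ended.

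Of 17 genes of the NF-kB route that induces VCAM1 and ICAM1, 14 were tested. In Lat-M2 against PA 3 rose and none fell (3 and 1 scaled, IRF1 being the fall), with a median of 0.062. Of all tested genes, 12.7% were higher in that comparison (7.47% higher and 8.41% lower scaled). In Lat-M1 against PA 12 rose and none fell, with a median of 0.72, where 33.2% of all were higher (24.0% scaled). In Lat-M2 against Lat-M1 9 were lower and none higher, where 20.1% of all were lower (22.6% scaled). The last 2 counts were the same after scaling. That NF-kB genes are high in Lat-M1 was known from earlier results when the list was made. Neither the direction of the list nor its counts and p-values are therefore independent evidence, those of the genes named next included.

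TNF, the cytokine, had 7.58 and 8.19 TPM in Lat-M2, 38.5 and 40.1 TPM in Lat-M1 and 1.72, 2.49 and 2.71 TPM in PA. The groups did not overlap, and the log2 difference from PA was 1.44 ± 0.13 in Lat-M2 (limma adjusted p = 0.00129) and 3.62 ± 0.13 in Lat-M1 (limma adjusted p = 2.14e-06). IL1R1, the interleukin 1 receptor, rose in Lat-M2 (1.07 ± 0.11, limma adjusted p = 0.00181) and Lat-M1 (1.36 ± 0.11, limma adjusted p = 7.61e-05), and Lat-M2 missed the test against Lat-M1 (-0.29 ± 0.12, limma adjusted p = 0.101). Its ligands IL1A and IL1B were at most 0.0464 and 0.0304 TPM. TNFAIP3, an inhibitor of the route, had 8.23 and 8.04 TPM in Lat-M2, 26.9 and 29.4 TPM in Lat-M1 and 7.84, 7.83 and 8.78 TPM in PA. NFKB2, an NF-kB subunit, had 22.1 and 19.1 TPM in Lat-M2, 55.8 and 62.3 TPM in Lat-M1 and 19.9, 23.1 and 23.4 TPM in PA. Both rose in Lat-M1 (1.67 ± 0.08, limma adjusted p = 5.79e-06, for TNFAIP3, and 1.38 ± 0.10, limma adjusted p = 4.64e-05, for NFKB2). In Lat-M2 both missed the test (limma adjusted p = 0.997 and 0.508). IKBKB, the kinase that releases NF-kB, was higher by 0.36 ± 0.07 in Lat-M2 (limma adjusted p = 0.019) and 0.33 ± 0.07 in Lat-M1 (limma adjusted p = 0.00741), differences of 0.22 and 0.16 after scaling, with calls lost under 4 and 1 of 14 alternatives (limma adjusted p up to 0.0983, without Lat-M2 replicate 1, and 0.0652, without Lat-M1 replicate 2). TNF, IL1R1 and IKBKB were the 3 rises in Lat-M2.

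**Figure D3:**
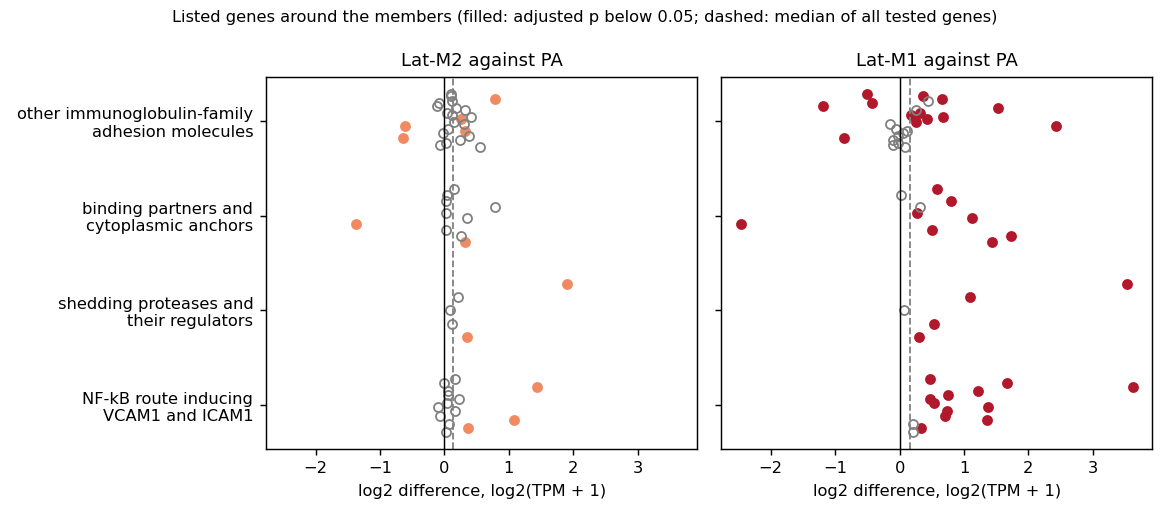
Log2 differences from PA of the tested genes of 4 lists (filled points passed the test, open points did not), for Lat-M2 on the left and Lat-M1 on the right, with a dashed line at the median of all tested genes. In the NF-kB list 3 of 14 points are filled in Lat-M2 and 12 of 14 in Lat-M1, all right of 0.

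Selectins and their ligand, which act before VCAM1 when leukocytes are caught from the blood, made a list of 4. Of these 3 were listed, and none reached the filter: SELE was at most 0.0214 TPM and SELPLG at most 0.828 TPM in any library.

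With the other members left out, the tested genes whose pattern over the 7 libraries lay closest to that of VCAM1 were ranked. The measure was the root mean square difference of log2(TPM + 1), each gene taken relative to its own PA mean. They were TNFAIP6, a secreted hyaluronan-binding protein (0.168), SGPP2, a sphingosine phosphate phosphatase (0.372), DSC2, a desmosomal cadherin (0.382), SPARC, a matrix glycoprotein (0.446), and CD74, a chaperone of MHC class II molecules (0.463). TNFAIP6 had 31.3 and 26.7 TPM in Lat-M2, 41.8 and 44.2 TPM in Lat-M1 and 2.02, 2.32 and 2.25 TPM in PA. SPARC, at 10.1 and 8.97 TPM in Lat-M2, 8.44 and 9.93 TPM in Lat-M1 and 0.0851, 0.126 and 0.0368 TPM in PA, overlapped between the Lat-M pairs, which VCAM1 did not. SPARC, CD74 and DSC2 averaged 0.0827, 0.153 and 0.389 TPM in PA and passed the filter on low values only through the Lat-M libraries. None of the 5 is an immunoglobulin-family adhesion molecule, but the members could not appear among them. The likeness is a description over libraries that share their groups.

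**Figure D4:**
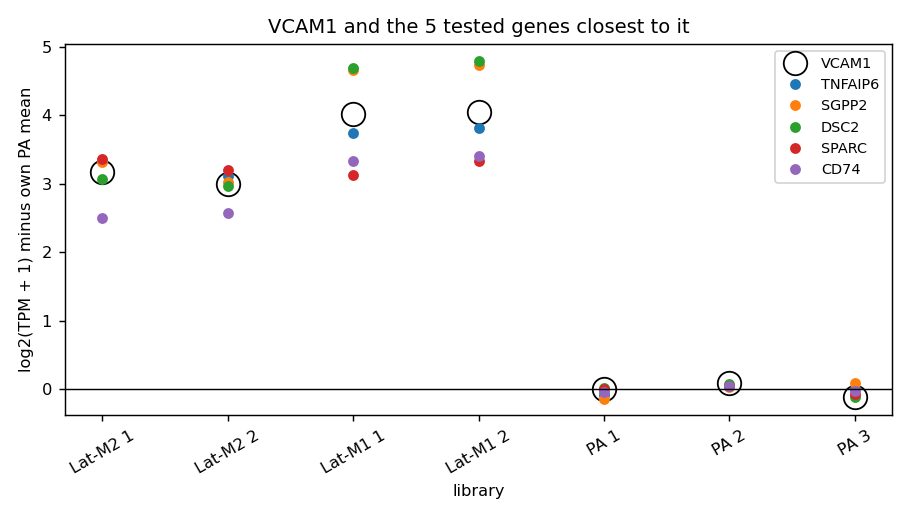
Log2(TPM + 1) less the gene's own PA mean, by library, for VCAM1 (open circles) and the 5 tested genes closest to it, other members left out (coloured points). All 6 lie near 0 in PA and above 2 in the 4 Lat-M libraries, and SGPP2 and DSC2 lie above VCAM1 in Lat-M1.

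Markers of other cell types were examined because VCAM1, ICAM1 and MCAM are also expressed by endothelium, pericytes or leukocytes. Of 7 markers of renal tubule and of this cancer, 4 averaged at least 1 TPM, and the sum of all 7 was 692 to 761 TPM in Lat-M2, 481 to 504 TPM in Lat-M1 and 507 to 550 TPM in PA. PAX8, a renal lineage factor, averaged 77.8 TPM in Lat-M2, 84.2 TPM in Lat-M1 and 71.5 TPM in PA. The keratin KRT8 averaged 193 TPM in Lat-M2, 91.9 TPM in Lat-M1 and 128 TPM in PA, its partner KRT18 averaged 421 TPM in Lat-M2, 263 TPM in Lat-M1 and 278 TPM in PA, and the cadherin CDH6 averaged 32.2 TPM in Lat-M2, 52.6 TPM in Lat-M1 and 50.3 TPM in PA. CA9, a hypoxia target typical of this cancer, was at most 0.156 TPM. The 6 listed of 8 endothelial markers summed to at most 0.120 TPM in any library, and CDH5, the defining one, was at 0 in all 7. Of 8 fibroblast and pericyte markers, 2 averaged at least 1 TPM, and the sum of all 8 was 6.93 to 8.87 TPM in Lat-M2, 21.9 to 23.8 TPM in Lat-M1 and 5.18 to 5.54 TPM in PA. COL1A1 averaged 3.32 TPM in Lat-M2, 19.9 TPM in Lat-M1 and 1.19 TPM in PA, and RGS5, a pericyte marker and the other of the 2, averaged 4.29 TPM in Lat-M2, 2.02 TPM in Lat-M1 and 3.71 TPM in PA. PDGFRB had 0.359 and 0.185 TPM in Lat-M2, 0.712 and 0.974 TPM in Lat-M1 and 0.360, 0.341 and 0.461 TPM in PA. COL1A2, COL3A1, LUM, DCN and PDGFRA were at most 0.0364 TPM. Of 7 leukocyte markers, 4 were listed, and CD68 averaged 40.7 TPM in Lat-M2, 14.8 TPM in Lat-M1 and 46.7 TPM in PA, while PTPRC, the defining one, was at most 0.0121 TPM. The 3 listed of 6 neural and glial markers were each at most 0.313 TPM. The part of these marker genes in the members' differences was not tested.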

How the data were processed

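Per the labels, RNA came from an RNeasy extraction and libraries from the TruSeq v2 or the NEBNext Ultra kit, and the kit of each library is not stated. TopHat2 2.2.4 and hg19 are named in the submitters' processing notes, and the quantifier, annotation and filters are not given in the sources used here. The authors deposited 1 table per library, and its unit, TPM, was read from the values: each library sums to 1000000, and across 7767 genes the smallest value above 0 decreased with transcript length in GENCODE 29 (Spearman's rho -0.94). TPM keeps no read total, so depth is unknown and no counting interval can be given.

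Values were taken as log2(TPM + 1). Genes that averaged 1 TPM or more were fitted with limma 3.58.1 (R 4.3.3; trend and robust options) in 1 model of 3 groups, with Benjamini-Hochberg adjustment at 0.05 over all tested genes. The fit was checked on simulated data. Other steps used Python 3.11.15 and pandas 2.3.3. Symbols are those of the files; the highest entry was taken for 161 symbols under several identifiers, none of them a member.

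The members and lists were chosen with earlier results of these data known. Of 140 list symbols, 21 were not among the listed genes. Named genes were the 9 members, up to 4 genes per list with the smallest p among those past the threshold in each Lat-M pair against PA, and the 5 genes closest to VCAM1; others are said to be chosen after their values were seen, as were the marker genes given as examples. Promoters are from RefSeq, GRCh38.p14, a build other than the submitters', so no other positions are given. Alternatives were a pseudocount of 0.1, no filter, a minimum mean of 5 TPM, median ratio scaling, leaving out 4 structural RNAs, limma without the trend and robust options, a replicate block, the Lat-M libraries alone and leaving out each library.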

Additional observations from a re-analysis of the deposited data

Results flagged for a closer look

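Of the 7 tested members, 6 differed between the Lat-M pairs by the test of Lat-M2 against Lat-M1, so that their difference from PA was not the same in both pairs. Of all tested genes, 36.0% passed that test and 20.1% were lower in Lat-M2 (44.2% and 22.6% scaled). The call of ALCAM was lost under 12 of 16 alternatives and that of NRCAM under 5 of 15. The log2 differences were -1.55 for ICAM1, -1.12 for MCAM, -0.95 for VCAM1, -0.91 for L1CAM, -0.73 for NRCAM and -0.21 for ALCAM. For VCAM1, MCAM and L1CAM this left Lat-M2 above PA by less than Lat-M1, for ICAM1 it left Lat-M2 overlapping the PA range, and for ALCAM and NRCAM it left Lat-M2 farther below PA than Lat-M1.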

How the results depend on the processing

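Of all tested genes, 2494 passed the test in Lat-M2 against PA, 7499 in Lat-M1 against PA and 6022 in Lat-M2 against Lat-M1. In Lat-M2 against PA the count was 1529 without a filter and 943 with a replicate block, and 506 to 3191 when 1 library was left out: 506 without Lat-M2 replicate 1, 1248, 1138 and 1276 without PA replicates 1, 2 and 3, and 1550 and 1548 without Lat-M1 replicates 1 and 2. In Lat-M1 against PA it was 4721 (without Lat-M1 replicate 2) to 7925, and in Lat-M2 against Lat-M1 3838 to 5830. Same-numbered libraries did not pair (correlations of their deviations -0.082 to 0.0312), and the replicate block gave 5908 and 4795 calls in the other 2 comparisons. The split into higher and lower genes moved with the scaling: 2119 and 375 in Lat-M2 against PA became 1249 and 1407 scaled and 1535 and 879 without structural RNAs, 5558 and 1941 in Lat-M1 against PA became 4013 and 3840, and 3745 and 4047, and 2668 and 3354 in Lat-M2 against Lat-M1 became 3605 and 3781, and 4401 and 3090. In Lat-M2 against Lat-M1, VCAM1, ICAM1, MCAM and L1CAM stayed past the threshold under the 16 alternatives (highest limma adjusted p = 0.00416, 0.000628, 0.00485 and 0.00501), and NRCAM lost its call under 5 of 15 and ALCAM under 12 of 16. With a pseudocount of 0.1 the log2 difference from PA was -5.18 for ITGAD and -2.18 for NTM in Lat-M1 and -1.09 for CNTN1 in Lat-M2. Scaling gave 0.17 for CD58 in Lat-M2, and leaving out structural RNAs gave 0.33 for ADAM17 and 0.15 for IKBKB in Lat-M1. Where 1 Lat-M library was left out, the lone one was assumed to vary like the others. TPM without counts limits what can be said of BCAM, NCAM1 and other genes near 0. The cause of these changes was not tested.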
